A study of Mus musculus with 12 samples.

Results

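Histone deacetylases (HDACs) remove acetyl groups from lysines of histones and other proteins, and most of them act on chromatin as the enzymes of corepressor complexes. They are grouped into class I (Hdac1, Hdac2, Hdac3 and Hdac8), class IIa (Hdac4, Hdac5, Hdac7 and Hdac9), class IIb (Hdac6) and class IV (Hdac11). In muscle precursors, class I enzymes are known to hold MyoD target genes silent before differentiation, and class IIa enzymes to bind and repress MEF2 transcription factors until kinases send them out of the nucleus. The 10 genes listed above were chosen by name, and a gene was represented by the probes annotated to it on the array. Of these 10 genes, 9 had annotated probes and a tested probe, among 10847 tested genes in all; no probe was named for Hdac1.

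The cells were C2C12, a mouse myoblast line that withdraws from the cell cycle and fuses into myotubes when serum is reduced. Cells received siBRM, an siRNA against BRM (gene Smarca2), siBRG1, an siRNA against BRG1 (gene Smarca4), or the scrambled control siSCR; BRM and BRG1 are the alternative ATPases of SWI/SNF chromatin remodelling complexes. All received 100 nM siRNA with Dharmafect3 in growth medium (RPMI with 20% FBS), were moved to differentiation medium (RPMI with 2% HS and ITS), and gave total RNA by Trizol. The 6 groups were siBRM 48 h, siBRG1 48 h, siSCR 48 h, siBRM 18 h, siBRG1 18 h and siSCR 18 h, timed from the onset of differentiation medium, with 2 arrays each on 3 BeadChips. The untransfected line and cells in growth medium are not among these groups, and nothing in the labels says that the replicates were separate cultures, so a p-value here speaks only to the spread among the arrays at hand, which may be technical. A knockdown lowers a transcript without removing the protein at once, which limits the groups as models of BRM or BRG1 loss.

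The arrays differed in brightness by BeadChip. The BeadChip with replicate 1 at 18 h had mean signals of 513 to 546 and that with replicate 1 at 48 h had 665 to 794, while replicate 2 of all 6 groups shared a BeadChip at 1218 to 1644. Between 27.3% and 39.4% of 45281 probes were detected per array, meaning a detection p-value under 0.05 against that array's negative controls. Within replicate 1, time and BeadChip cannot be told apart. Smarca2 differed by -1.17 with siBRM against siSCR at 18 h and by -0.59 at 48 h, and Smarca4 by -1.21 at 18 h and -1.94 at 48 h with siBRG1 against siSCR (log2 differences, lower in both replicates each time), but none passed limma's test (the lowest adjusted p was 0.99995). Of 9 skeletal muscle markers, 7 were tested and 5 were detected on all 12 arrays; Myf5 was not detected on any array, and Myh3 had no named probe. Of 17 markers of other lineages, Adipoq, Plin1, Cidec, Fabp4, Sp7, Ibsp, Acan, Cdh5, Tek and Ptprc were not detected on any array, and Runx2 and Cd68 had no named probe. The other 5 were detected: Pparg, an adipocyte marker, on all 12 arrays, the T cell marker Cd3e on 5, the chondrocyte marker Col2a1 on 2, and Bglap and Pecam1 on 1 each.

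Sequence around the transcription start was at hand for 8 of the 10 genes, in 12 RefSeq windows of 250 bases before to 50 bases after a start (GRCm38.p6). Hdac8 and Hdac11 are shown because they were the members higher at 48 h than at 18 h in both replicates with siSCR. Capitals mark E-boxes, the CANNTG motif that MyoD and myogenin can bind, searched on both strands; the motif is its own reverse complement in form. The Hdac11 window lies at chr6:91156565-91156864 on the + strand and the Hdac8 window at chrX:102505109-102505408 on the - strand, each spanning the promoter and the start of the first exon of a RefSeq transcript.
Hdac11: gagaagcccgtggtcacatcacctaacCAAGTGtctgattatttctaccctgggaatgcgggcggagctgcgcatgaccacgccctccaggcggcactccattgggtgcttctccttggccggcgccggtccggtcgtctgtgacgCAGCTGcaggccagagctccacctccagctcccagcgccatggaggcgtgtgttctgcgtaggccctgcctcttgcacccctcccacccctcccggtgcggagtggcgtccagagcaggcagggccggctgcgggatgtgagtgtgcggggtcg
Hdac8: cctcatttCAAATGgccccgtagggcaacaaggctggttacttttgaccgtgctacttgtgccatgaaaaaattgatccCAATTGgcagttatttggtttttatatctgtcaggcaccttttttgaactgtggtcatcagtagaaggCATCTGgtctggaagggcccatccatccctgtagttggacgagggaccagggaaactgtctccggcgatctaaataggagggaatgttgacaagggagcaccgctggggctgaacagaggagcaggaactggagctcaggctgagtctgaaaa

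Hdac11 held 2 E-boxes, CAAGTG at -223 and CAGCTG at -104 from the start, and Hdac8 held 3, at -242, -171 and -103. An E-box occurred in 72.3% of all 32851 windows, and CAGCTG, which is a subset of CANNTG, in 16.3%. CAGCTG was not particular to Hdac11: it also occurred at -89 and -183 in the 2 windows of Hdac9, and at 11 and 19 in 1 window of Hdac7. No E-box was found in the windows of Hdac2 and Hdac4, nor in 2 of the 4 windows of Hdac7. A MEF2-type motif, CTA and TAG parted by any 4 bases on either strand, present in 3.69% of all windows, occurred once each in the windows of Hdac2 and Hdac5 and in 1 of the 2 windows of Hdac9. Hdac2, with 36 CpG dinucleotides, Hdac4, with 32, and 2 windows of Hdac7, with 35 and 31, were CpG-dense, against a median of 7 over all windows. The 2 other windows of Hdac7 had 6 and 5, and those of Hdac9 had 0 and 3. Hdac5 had 18, Hdac6 had 20, Hdac8 had 6 and Hdac11 had 22. A match describes letters in a window and no binding was measured here.

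Hdac11, the only class IV enzyme and a known fatty-acid deacylase, showed the widest differences among the members, and these were between times. Normalised log2 intensities at 48 h were 9.53 and 9.49 with siBRM, 8.38 and 8.44 with siBRG1, and 8.94 and 10.07 with siSCR (replicates 1 and 2). At 18 h they were 6.77 and 7.20 with siBRM, 5.80 and 6.61 with siBRG1, and 5.35 and 7.29 with siSCR. All 6 arrays at 48 h lay above all 6 at 18 h, and the 3 arrays of replicate 1 at 18 h were not well above background. The probe was detected on the other 9 arrays.

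**Figure D1:**
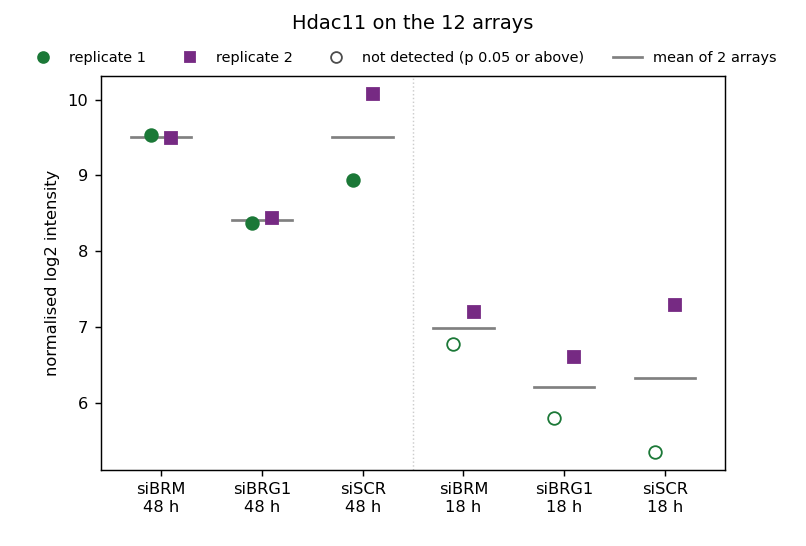
Normalised log2 intensity of Hdac11 (vertical axis) on each of the 12 arrays, by siRNA and time (horizontal axis). Circles are replicate 1, squares replicate 2, open symbols arrays where the probe was not detected, and bars the mean of 2 arrays; the 48 h arrays sit between 8.38 and 10.07, all above the 18 h arrays.

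Between 48 h and 18 h, Hdac11 differed by 2.53 ± 0.66 with siBRM, 2.21 ± 0.66 with siBRG1 and 3.18 ± 0.66 with siSCR (log2 difference ± SE, n = 2 arrays against 2). In limma's fit of group means without a block, the adjusted p-values were 0.331 with siBRM, 0.850 with siBRG1 and 0.160 with siSCR, so no difference passed the threshold of 0.05. With the replicate number as a block, adjusted p was 0.028 with siBRM, 0.086 with siBRG1 and 0.011 with siSCR. With BeadChip as a fixed block, the difference was 2.19 with siBRM (adjusted p = 0.106), 1.88 with siBRG1 (adjusted p = 0.269) and 2.85 with siSCR (adjusted p = 0.043). Under this block the Hdac11 difference between the times passed with siSCR, and those with siBRM and siBRG1 did not. All these fits took the 18 h values of replicate 1 as measured, although the probe was not detected there. Without the siSCR array among them, the siSCR difference under this block was 2.41. In replicate 1 each time had its own BeadChip, so in this fit the time step shared by the siRNA groups comes from replicate 2 alone. The siSCR call in this fit was kept without siSCR 48 h replicate 1 (adjusted p = 0.023) and lost when any other single array was left out (adjusted p up to 0.427).

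Without background correction the differences were 1.47 with siBRM, 0.97 with siBRG1 and 1.71 with siSCR, and none passed. Replicate 2, where both times shared a BeadChip and all arrays detected the probe, gave 48 h minus 18 h differences of 2.30 with siBRM, 1.84 with siBRG1 and 2.78 with siSCR. These arrays also set the shared time step of the fit with BeadChip as a fixed block, so they are not separate evidence. In replicate 1 the 18 h value is only a bound. Hdac11 was at least 5.78-fold higher at 48 h with siBRM, at least 2.03-fold with siBRG1 and at least 3.81-fold with siSCR in that replicate, where the bound is the lowest signal of any detected probe on the 18 h array or the probe's own value, whichever is higher. The time difference was thus of the same sign in both replicates of every siRNA group. Whether it differed between siRNAs was tested as an interaction, which was -0.97 ± 0.94 for siBRG1 against siSCR (limma adjusted p = 0.99993), and no interaction of a member passed.

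**Figure D2:**
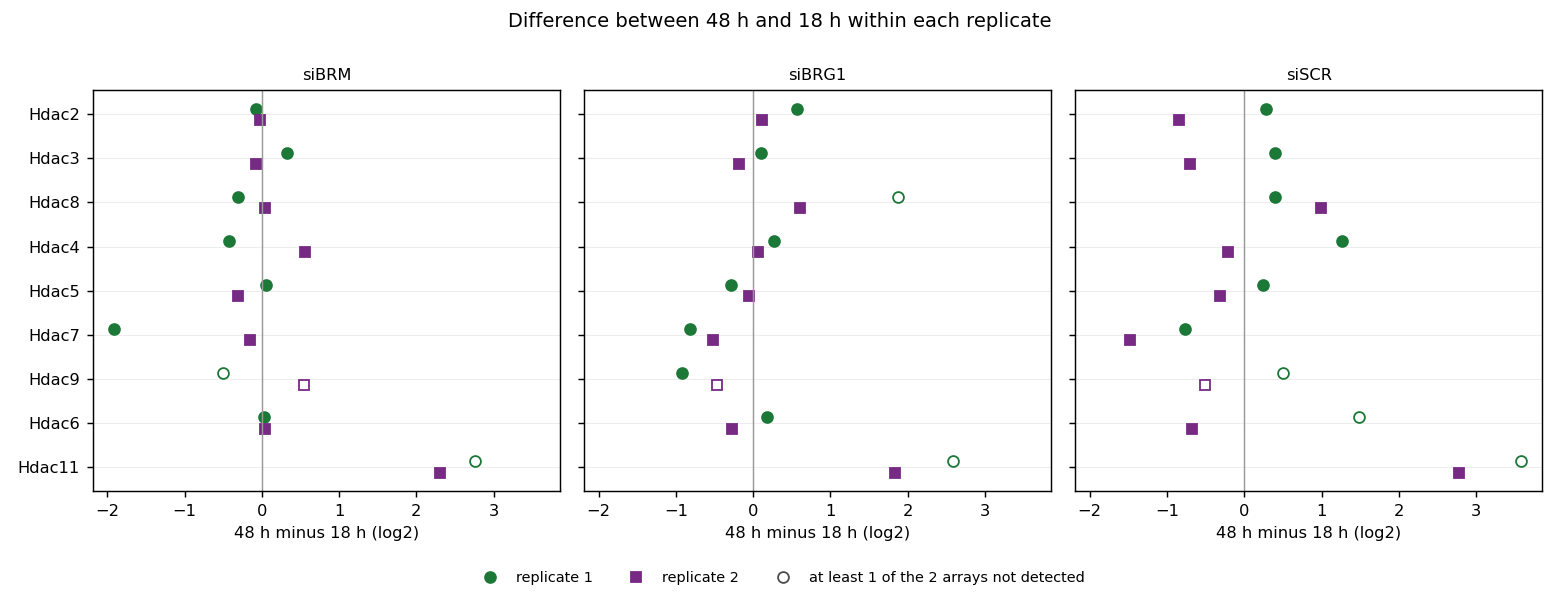
Difference in log2 intensity between 48 h and 18 h (horizontal axis) for the 9 tested members (vertical axis), within replicate 1 (circles) and replicate 2 (squares), for siBRM, siBRG1 and siSCR. Open symbols have at least 1 array below detection; Hdac11 lies at 1.84 or more in every panel and Hdac7 below 0 in every panel.

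Hdac11 was lower with siBRG1 than with siSCR at 48 h, by 0.56 in replicate 1 and 1.63 in replicate 2, and both siBRG1 arrays lay below both siSCR arrays. Here and for the members below, the share of all tested genes with such a separation of 2 arrays from 2 was not counted. A separation without overlap therefore only describes the values. The mean difference was -1.09 ± 0.66 (limma adjusted p = 0.99995; 0.562 with a replicate block and 0.462 with BeadChip as a block), which did not pass. With siBRM against siSCR at 48 h the replicates went opposite ways, 0.59 and -0.58. With siBRM against siBRG1 at 48 h Hdac11 differed by 1.15 and 1.05, a mean of 1.10 ± 0.66 that did not pass with or without a block (limma adjusted p = 0.601 with BeadChip as a block). At 48 h the 7 tested muscle markers had a median difference from siSCR of -0.97 with siBRG1 and 0.06 with siBRM, against 0.04 and 0.03 over all genes. With siBRG1, 7 of 7 were lower in both replicates, where 24.1% of all tested genes were. The part of these markers in the Hdac11 values was not tested. In bulk RNA, fewer cells of a type and less RNA per cell cannot be told apart.

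Class IIa enzymes shuttle between nucleus and cytoplasm and repress MEF2. Hdac7, known for its roles in endothelium and thymocytes, gave at 48 h 8.73 and 9.29 with siBRM, 9.73 and 9.18 with siBRG1, and 9.48 and 8.18 with siSCR. At 18 h it gave 10.65 and 9.45 with siBRM, 10.55 and 9.70 with siBRG1, and 10.25 and 9.66 with siSCR. The 48 h arrays lay below the 18 h arrays without overlap for siBRM and siSCR, and overlapped by a small margin for siBRG1. How many of all tested genes lay apart in this way was not counted. The log2 differences between 48 h and 18 h were -1.04 with siBRM, -0.67 with siBRG1 and -1.12 with siSCR, each with an SE of 0.62. None passed limma's test (the lowest adjusted p was 0.99985); with BeadChip as a block adjusted p was 0.510 with siBRM, 0.793 with siBRG1 and 0.412 with siSCR. Hdac7 was the member that varied most opposite to Hdac11, with a Pearson r of -0.86 over the 12 arrays after subtracting each replicate's mean; the 12 points share BeadChips and times.

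Hdac4, which represses MEF2 targets in muscle after denervation, varied more between replicates than between groups. Its values at 48 h were 7.80 and 9.59 with siBRM, 8.58 and 9.20 with siBRG1, and 9.11 and 9.24 with siSCR, and at 18 h they were 8.22 and 9.03 with siBRM, 8.30 and 9.15 with siBRG1, and 7.84 and 9.45 with siSCR. Replicate 2 exceeded replicate 1 in all 6 groups, by 0.13 to 1.79. A second tested Hdac4 probe was detected on 3 arrays only.

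Hdac5 is a close relative of Hdac4 that CaM kinase and protein kinase D signals send out of the nucleus. By the group means of its brightest probe, it was the steadiest member beside Hdac3. At 48 h it gave 10.92 and 11.03 with siBRM, 10.82 and 10.73 with siBRG1, and 11.10 and 10.82 with siSCR; at 18 h it gave 10.87 and 11.35 with siBRM, 11.10 and 10.78 with siBRG1, and 10.86 and 11.13 with siSCR. Its group means spanned 0.33 log2 units, and at 48 h both siBRG1 arrays lay below both siBRM arrays and just below both siSCR arrays. Against siSCR at 48 h, siBRG1 gave -0.19 by this probe and -0.38 and -0.01 by the 2 other probes, all 3 detected on 12 arrays. The other probes were less steady. Over the 12 arrays they ranged from 9.57 to 11.11 and from 7.66 to 8.72, against 10.73 to 11.35 for the brightest.

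Hdac9, whose loss is known in mice to sensitise muscle to denervation, was near background. Its brightest probe was detected on 4 arrays, all of replicate 1: at 48 h 6.69 with siBRG1 and 6.65 with siSCR, and at 18 h 7.23 with siBRM and 7.60 with siBRG1. The 3 other probes were not detected on any array. In replicate 2 all 6 arrays were at background, so no fold is given there.

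**Figure D3:**
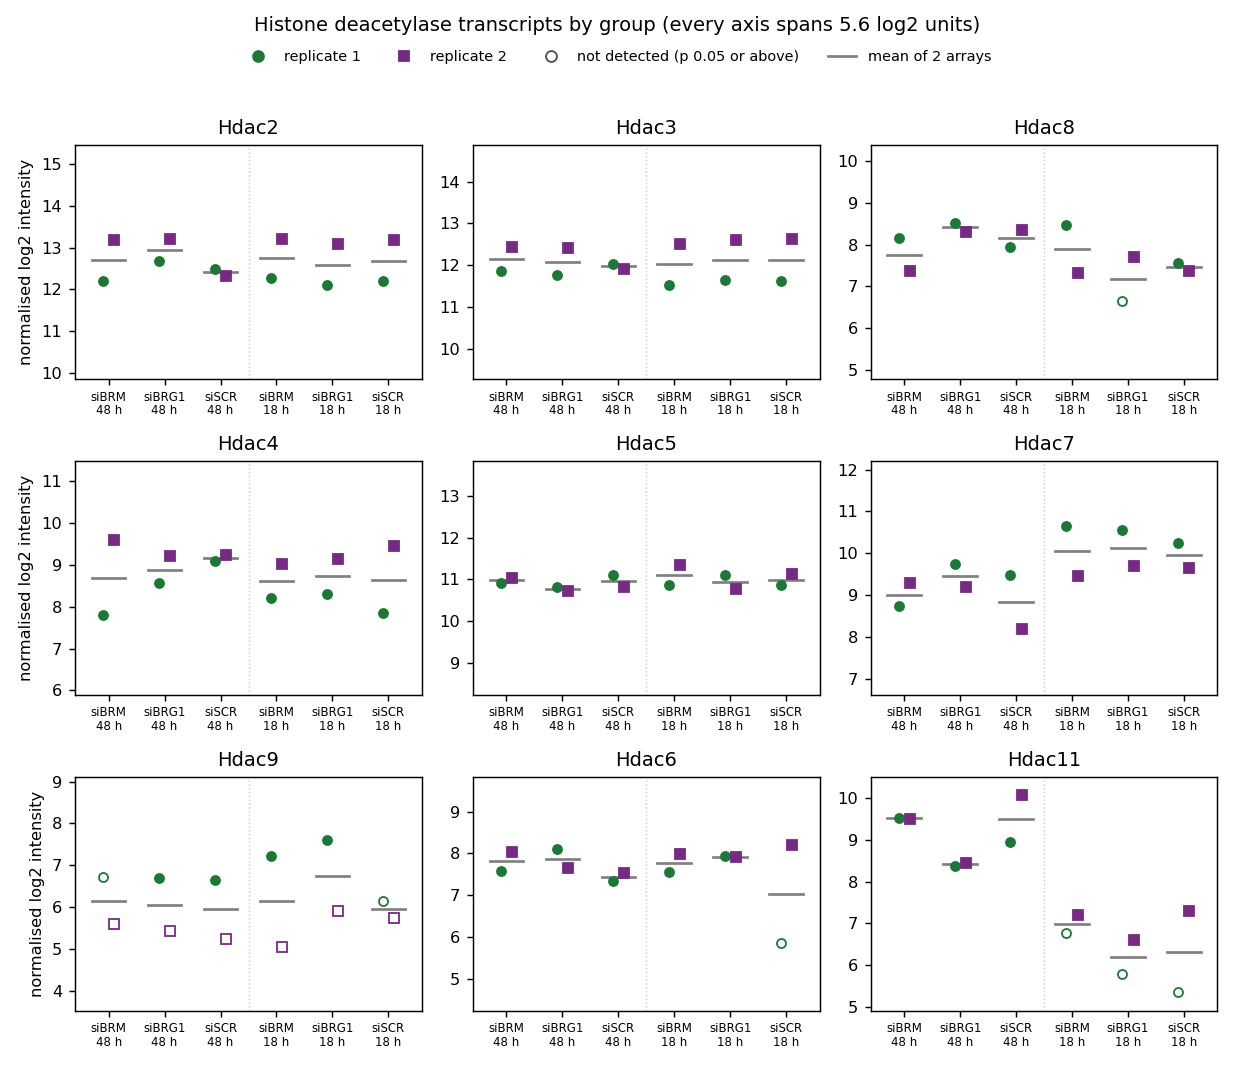
Normalised log2 intensity (vertical axes, each spanning the same range) of the 9 tested members on the 12 arrays, by siRNA and time (horizontal axes). Circles are replicate 1, squares replicate 2, open symbols arrays below detection and bars means of 2 arrays; Hdac11 has the widest range of group means (3.31 log2 units) and Hdac3 the narrowest (0.18).

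The class I enzymes Hdac1, Hdac2 and Hdac3 work in the nucleus, between them in the Sin3, NuRD, CoREST and NCoR/SMRT complexes. Hdac2, the partner of Hdac1 in several of them, gave at 48 h 12.20 and 13.19 with siBRM, 12.68 and 13.21 with siBRG1, and 12.49 and 12.33 with siSCR. At 18 h it gave 12.27 and 13.21 with siBRM, 12.10 and 13.08 with siBRG1, and 12.21 and 13.18 with siSCR. In replicate 2 the siSCR 48 h array stood below the 5 other arrays, which lay within 13.08 to 13.21, while the arrays of replicate 1 lay within 12.10 to 12.68. Both siBRG1 arrays lay above both siSCR arrays at 48 h. The Hdac2 difference of siBRG1 from siSCR at 48 h, 0.53 ± 0.59, was 0.19 in replicate 1 and 0.88 in replicate 2 and did not pass (limma adjusted p = 0.99995; 0.632 with BeadChip as a block).

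Hdac3, the catalytic subunit of NCoR/SMRT complexes, gave at 48 h 11.86 and 12.44 with siBRM, 11.75 and 12.40 with siBRG1, and 12.02 and 11.92 with siSCR. At 18 h it gave 11.53 and 12.51 with siBRM, 11.65 and 12.59 with siBRG1, and 11.63 and 12.62 with siSCR. The siSCR 48 h array of replicate 2 was again the lowest of its replicate. Across the 12 arrays, with replicate means subtracted, Hdac2 and Hdac3 had a Pearson r of 0.76, the highest between any pair of members.

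Hdac8, a class I enzyme that acts on the cohesin subunit SMC3, gave at 48 h 8.16 and 7.36 with siBRM, 8.52 and 8.30 with siBRG1, and 7.94 and 8.36 with siSCR. At 18 h it gave 8.46 and 7.32 with siBRM, 6.65 (not well above background) and 7.69 with siBRG1, and 7.55 and 7.37 with siSCR. The 48 h arrays lay above the 18 h arrays for siBRG1 and siSCR and overlapped them for siBRM. The differences were 1.24 ± 0.55 with siBRG1 and 0.69 ± 0.55 with siSCR, and neither passed limma's test (the lowest adjusted p was 0.99985; with BeadChip as a block, 0.563 with siBRG1 and 0.624 with siSCR). In replicate 2, free of the undetected array, the siBRG1 difference was 0.60. A second tested Hdac8 probe, detected on 6 arrays, differed by 0.06 with siBRG1 and 0.23 with siSCR, so the probes did not show the same size.

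Hdac6, the class IIb enzyme that deacetylates tubulin in the cytoplasm, gave at 48 h 7.59 and 8.03 with siBRM, 8.11 and 7.64 with siBRG1, and 7.35 and 7.53 with siSCR. At 18 h it gave 7.56 and 7.99 with siBRM, 7.93 and 7.92 with siBRG1, and 5.87 (not well above background) and 8.21 with siSCR. At 48 h both siBRM and both siBRG1 arrays lay above both siSCR arrays, by mean differences of 0.37 with siBRM and 0.44 with siBRG1 that did not pass the test; the siBRM difference was -0.0034 with arrays scaled to their medians. At 18 h the differences from siSCR of 0.74 ± 0.67 with siBRM and 0.89 ± 0.67 with siBRG1 rest on the undetected siSCR array: without it they were -0.43 with siBRM and -0.29 with siBRG1.

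Over all 11 comparisons, including 2 interactions, limma without a block called 0 of the 9 tested members. The same fit called 0.461% of all tested genes between the times with siBRM, 0.101% with siBRG1 and 0.323% with siSCR, and 0.0% in every comparison between siRNAs. At an unadjusted p under 0.05 in this fit, 1 member stood out between the times with siBRM and with siSCR (Hdac11) and 2 with siBRG1 (Hdac8 and Hdac11), where 4.76% of all genes did with siBRM, 5.39% with siSCR and 3.36% with siBRG1. Between siRNAs 0 members did in this fit, where 17 to 218 of all genes did. With a replicate block, or BeadChip as a fixed or random block, Hdac11 did with siBRG1 against siSCR at 48 h, as did 9.21% to 10.6% of all genes. It also did with siBRM against siBRG1 at 48 h, as did 7.16% to 8.09% of all genes. With BeadChip as a fixed block the calls between the times were 1.5% of all genes with siBRM, 0.479% with siBRG1 and 1.65% with siSCR, and 1 member, Hdac11 with siSCR. With a replicate block they were 2.5% with siBRM, 0.867% with siBRG1 and 2.65% with siSCR, and Hdac11 was called with siBRM and with siSCR. Between siRNAs both of these blocks called 0.0% of all genes. BeadChip as a random block called 0.101% with siBRG1 against siSCR and 0.258% with siBRM against siBRG1, both at 48 h, and no member.

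Members that had the same sign in both replicates were counted beside the share of all tested genes that did; Hdac9 counts here although it was at background in replicate 2. With siBRG1 against siSCR at 48 h, 4 members were higher in both replicates (Hdac2, Hdac6, Hdac7 and Hdac9), where 30.0% of all tested genes were, and 3 were lower in both (Hdac4, Hdac5 and Hdac11), where 24.1% were. With siBRM against siSCR at 48 h, 2 were higher in both (Hdac6 and Hdac9; 21.0% of all genes) and 0 lower in both (16.5%). At 18 h, siBRM had 2 higher (24.0%) and 1 lower (26.4%), and siBRG1 had 2 higher (29.8%) and 1 lower (29.7%). With siBRM against siBRG1, 4 were higher (28.7%) and 2 lower (31.0%) at 48 h, and 2 higher (26.3%) and 3 lower (28.4%) at 18 h. The comparisons with siSCR share its arrays. The median difference of the 9 members was 0.18 with siBRM and 0.12 with siBRG1 at 48 h, against 0.03 with siBRM and 0.04 with siBRG1 over all genes.

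**Figure D4:**
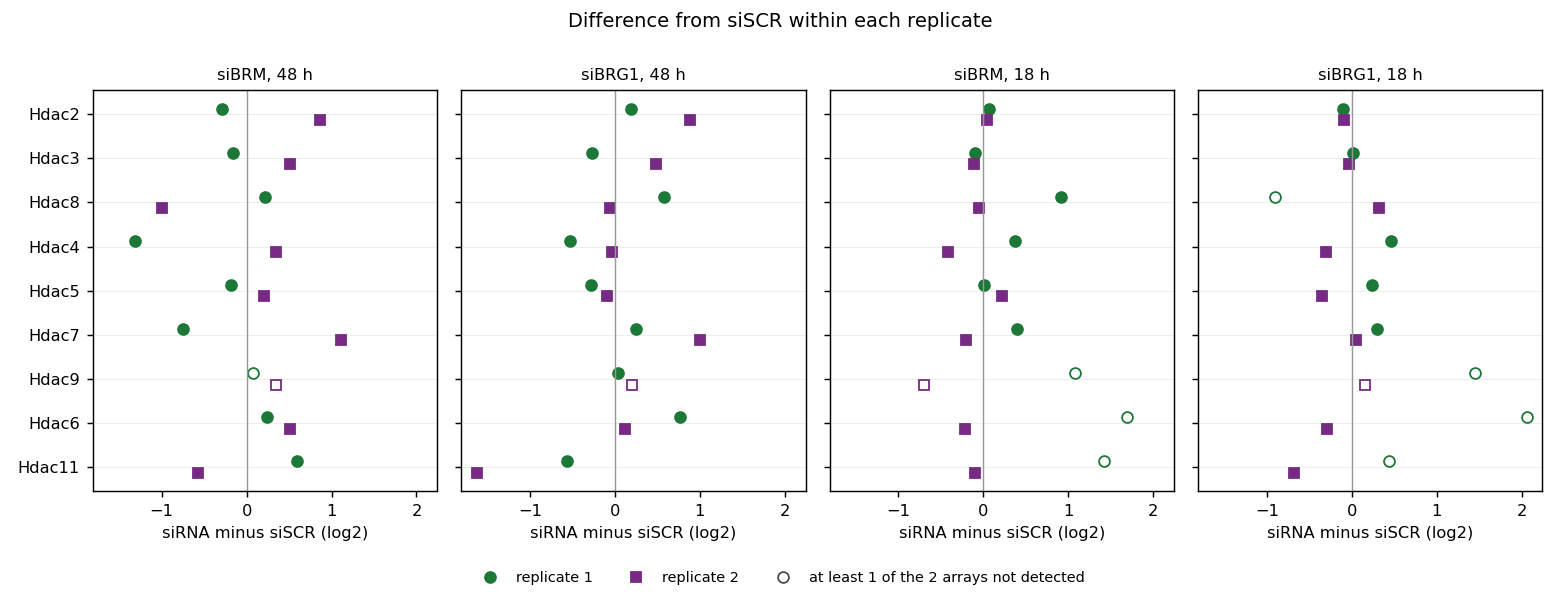
Difference in log2 intensity from siSCR (horizontal axis) for the 9 tested members (vertical axis), within replicate 1 (circles) and replicate 2 (squares), for siBRM and siBRG1 at 48 h and at 18 h. Open symbols have at least 1 array below detection; with siBRM at 48 h, 7 of the 9 members have replicates on opposite sides of 0, and with siBRG1 at 48 h Hdac11 lies at -0.56 and -1.63.

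Between the times, 4 members were higher in both replicates with siBRG1 (31.0% of all genes), 2 with siBRM (29.1%) and 2 with siSCR (25.3%); Hdac11 was the member common to the 3 sets. Lower in both replicates were 3 with siBRG1 (33.9%), 2 with siBRM (31.7%) and 1 with siSCR (31.9%), with Hdac7 in each. The bead standard error of a member's signal was 3.72% to 9.51% of it, from 21 to 65 beads.

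Genes around the HDACs were read as lists. Among 20 MEF2 factors and genes known to be MEF2 or class IIa targets, 17 were tested. Higher at 48 h in both replicates were 14 with siBRM (29.1% of all tested genes), 14 with siBRG1 (31.0%) and 13 with siSCR (25.3%). Their median difference was 1.16 with siBRM, 0.84 with siBRG1 and 1.22 with siSCR, while over all genes it was -0.02 with siBRM, -0.02 with siBRG1 and -0.06 with siSCR. None was called without a block. With BeadChip as a fixed block 5 rose with siBRM, 3 with siBRG1 and 5 with siSCR, and 0 fell. These were Myog, Ckm and Chrng in all 3 siRNA groups, and Mef2c and Myom1 with siBRM and siSCR. Myog, a transcription factor of terminal differentiation, then rose by 3.14 with siBRM (limma adjusted p = 0.007), 3.02 with siBRG1 (0.018) and 2.94 with siSCR (0.011). Ckm, muscle creatine kinase, rose by 5.11 with siBRM (adjusted p = 0.009), 3.99 with siBRG1 (0.049) and 5.15 with siSCR (0.011). Chrnd with siSCR was called only with BeadChip as a random block (adjusted p = 0.040). Among the muscle markers, which share Myog and Ckm with that list, 7 of 7 tested were higher at 48 h in both replicates of every siRNA group. Acta1, skeletal actin, was called without a block, by 4.03 with siBRM (adjusted p = 0.014), 4.07 with siBRG1 (0.023) and 3.47 with siSCR (0.021). Tnnt3 was called only with a block. With BeadChip fixed it differed by 5.20 with siBRM (adjusted p = 0.003), 4.15 with siBRG1 (0.013) and 4.17 with siSCR (0.007). With siSCR the replicate block also called Myod1 (adjusted p = 0.041) and Cdh15 (0.045), and BeadChip as a random block called Cdh15 (0.041). These markers moved with the Hdac11 values over time, and their part in them was not tested. Of the markers of other lineages, Cd3e was not well above background on any 18 h array and was at least 2.11-fold higher at 48 h with siBRM (adjusted p = 0.375 without a block, 0.033 with the replicate block, 0.116 with BeadChip as a fixed block and 0.034 as a random one). It was at least 1.30-fold higher with siSCR and uncalled there and with siBRG1 in all of these fits. Pparg differed between the times by -1.56 with siBRM, -0.81 with siBRG1 and -1.22 with siSCR, uncalled in all of these fits; the part of Cd3e and Pparg in the Hdac11 values was not tested either.

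With siBRG1 against siSCR at 48 h, 13 of the 17 MEF2 factors and targets were lower in both replicates, where 24.1% of all tested genes were. Their median was -0.70, against 0.04 over all genes, and 0 were called with or without a block. Ckm averaged 10.19 with siBRG1 and 12.03 with siSCR. With siBRM against siSCR at 48 h the median was -0.07, against 0.03 over all genes.

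The other lists had medians between -0.31 and 0.32 in the comparisons between siRNAs. Of 38 corepressor subunits of class I complexes, 32 were tested, and of 13 histone acetyltransferases 10; neither list had a call with or without a block. Medians over the 6 comparisons between siRNAs were -0.21 to 0.08 for the corepressor subunits and -0.31 to 0.00 for the acetyltransferases. Of 25 class IIa kinases, phosphatases and 14-3-3 proteins, 23 were tested, with medians of -0.15 to 0.16; Camk2a, a calcium-dependent kinase, differed between the times by 2.04 with siBRM (adjusted p = 0.813 without a block, 0.045 with the replicate block, 0.052 with BeadChip as a fixed block and 0.019 as a random one). With siSCR it differed by 1.80 (adjusted p = 0.961 without a block, 0.069 with the replicate block, 0.070 with BeadChip fixed and 0.036 random). Of 15 class I substrates and partners in cell cycle exit, 11 were tested, with medians of -0.11 to 0.32. Cdkn1c, a cyclin-dependent kinase inhibitor, was at least 7.26-fold higher at 48 h than at 18 h with siBRM (adjusted p = 0.197 without a block, 0.014 with the replicate block, 0.051 with BeadChip fixed and 0.008 random). With siSCR it differed by 2.48 (adjusted p = 0.677 without a block, 0.054 with the replicate block, 0.121 with BeadChip fixed and 0.046 random). Ccnd1, cyclin D1, differed by -1.85 between the times with siSCR (adjusted p = 0.649 without a block, 0.114 with the replicate block, 0.090 with BeadChip fixed and 0.038 random). Cdkn1a, the cell cycle inhibitor p21, was the one gene of this list called with BeadChip as a fixed block, by 2.15 with siSCR (adjusted p = 0.041). With BeadChip as a random block 2 genes of the list were called higher and 1 lower with siSCR, and 2 higher with siBRM (Cdkn1c and Ccnd3), while the replicate block called 1 higher, Cdkn1c with siBRM. The 8 genes of the list of sirtuins and Hdac10 had medians of -0.27 to 0.28; Hdac10, the other class IIb enzyme, differed between the times by -1.01 with siBRM, -0.79 with siBRG1 and -0.67 with siSCR, lower in both replicates each time and uncalled.

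Genes that followed a member most closely over the 12 arrays, with replicate means subtracted, were ranked by Pearson r among 6445 genes detected on all arrays. For Hdac7 they were Slc35b4 (0.96), Rai1 (0.96), Ap1ar (0.96), Btbd3 (0.96) and F2r (0.96), and the most opposite were Micos13 (-0.98), Wdr83os (-0.97) and Med7 (-0.96). For Hdac4 they were Gnaq (0.89), Rela (0.84), Txlng (0.82), Pdia4 (0.81) and Dusp16 (0.81), and the most opposite Morn2 (-0.80), Orc4 (-0.79) and Il12rb1 (-0.78). For Hdac11, added after its values were seen, they were Sgca (0.98), Aamdc (0.98), Ank1 (0.97), Aif1l (0.97) and Lmf1 (0.97), and the most opposite Crybg1 (-0.98), Itgav (-0.98) and Aldh3a1 (-0.97). The arrays share BeadChips and times, and these values are descriptions.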

How the data were processed

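RNA of 12 samples was hybridised to Illumina mouse BeadChips. The first deposited table holds intensities per probe on a linear scale, not normalised to judge by the values, with detection p-values, counts of beads and bead standard errors per the file headers; GenomeStudio 2009.1 is named in the submitters' processing notes, and no other step is recorded there or in the labels. A further deposited table of intensities, whose quantiles nearly match between arrays, served as an alternative.

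Here the intensities were background-corrected with normexp by detection p-value (limma's nec, offset 16), quantile-normalised and put on the log2 scale, so low signals keep an offset that shrinks differences. Probes detected on at least 2 arrays were tested (20415 probes), 1 per gene: the tested probe with the highest mean. Of 45281 probes, 34885 had 1 gene symbol, 18 several and 10378 none; 34807 matched RefSeq. limma was fitted with 6 group means, two-sided, with Benjamini-Hochberg adjustment over all tested probes and a threshold of 0.05. Same-numbered samples deviated together (15 pairs of groups gave r of 0.45 to 0.82). Replicate 2 shared a BeadChip and replicate 1 lay on the others, so a BeadChip effect and a pairing of samples cannot be told apart. Fits with a block served as alternatives. Their results are given for members and for named list genes where a block changed a call.

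Every member was named, and from each list the called genes, at most 3, or the 2 with the smallest adjusted p per comparison, of which the text gives those for the main differences. Members and lists were chosen with earlier results of these data known. On simulated data with a replicate shift that was the same in all 6 groups, the fit without a block recovered fewer changed genes than the fit with a BeadChip block. The block removes such a shift by design. The real samples deviated together less fully (r of 0.45 to 0.82), so the simulation does not measure the gain here. A difference that did not pass in the fit without a block is no evidence that there was none. The number of arrays limits the precision. R 4.3.3, limma 3.58.1 and statmod 1.5.0 were used, and Python 3.11.15 for tables and plots.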

Additional observations from a re-analysis of the deposited data

How the results depend on the processing

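The limits are the number of arrays, 2 per group, and low signal: 1 or more of the 12 arrays of Hdac6, Hdac8, Hdac9 and Hdac11 were not well above background. The count of members called between 48 h and 18 h was 0 without a block; with siBRM it was 1 with the replicate block and with BeadChip as a random block, and with siSCR it was 1 with the replicate block and with BeadChip as a fixed or random block, Hdac11 each time. Leaving out 1 array at a time gave 0 throughout without a block and 0 to 1 with siSCR under the BeadChip block, a combination chosen after seeing the data. All other 357 counts of called members kept the main value, and the replicate block changed no other call of a member. Many of these counts could hardly move. Between siRNAs and in the interactions, every fit but that with BeadChip as a random block called 0 of all genes. The fit on probes detected on all 12 arrays left out Hdac6, Hdac8, Hdac9 and Hdac11. Counts over all genes moved more: 94 to 287 between the times with a replicate block, against 11 to 50 without. Between siRNAs at 48 h, BeadChip as a random block called 11 genes with siBRG1 against siSCR and 28 with siBRM against siBRG1, against 0 without a block. Median scaling called 0 genes and moved the median of all genes by over 0.1 in 7 of 11 comparisons: 0.33 (48 h against 18 h with siSCR), 0.16 (with siBRG1), -0.30 (siBRM against siSCR at 48 h), -0.22 (siBRG1 against siSCR at 48 h), 0.12 (siBRM against siBRG1 at 18 h), and -0.39 and -0.19 (the interactions of siBRM and siBRG1 with time). Of all 99 member differences, 28 turned sign under median scaling, 5 with BeadChip fixed and 74 in at least 1 of the fits without an array. Fitted member differences printed are mostly those larger than their SE, a rule set after seeing the data; among them Hdac6 with siBRM against siSCR at 48 h turned to -0.0034 under median scaling, and leaving out an array turned 4 others, Hdac6 with siBRG1 against siSCR at 18 h (-0.29 to 2.06, and -0.18 to 1.95 with the block), Hdac6 with siBRM against siSCR at 18 h (-0.43 to 1.91, and -0.33 to 1.80), Hdac7 with siBRG1 against siSCR at 48 h (-0.0245 to 1.28, and -0.0270 to 1.28), and Hdac8 with siBRM against siBRG1 at 18 h (0.15 to 1.29, and -0.14 to 1.57). Hdac11 between the times with siSCR was 2.21 to 4.15 without an array, 1.71 in the authors' deposited normalised values and 2.91 with median scaling. The cause was not tested.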
